A study of Mus musculus with 6 samples.

Results

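The 9 genes described here span transforming growth factor beta (TGF-beta) signaling from the ligand to a target: the ligand Tgfb1, the anchor of its latent form Nrros, the receptors Tgfbr1 and Tgfbr2, the signal transducers Smad2, Smad3 and Smad4, the inhibitory Smad7 and the target Tgfbi. They were taken by symbol from the 31053 genes of the expression matrix and were followed across groups of cells gated on marker genes, none of which is a member. The cells were CD45+ cells, that is leukocytes, sorted by flow cytometry from the tumor-bearing right hemisphere of female SCID mice, a strain deficient in mature T and B cells. Each mouse had been implanted at 8 weeks of age with U87, an established human glioma cell line, which carried either an IL-33 expression construct (3 mice, killed after 3 weeks) or the pcDNA 3.1 empty vector (3 mice, killed after 6 weeks). The labels give the age as 6 to 8 weeks, and IL-33 status and time after implantation cannot be told apart. The matrix pools the 6 libraries, and the sample labels tie none of the barcode suffixes 1 to 6 to a mouse. Groups were taken from those labels alone, so IL-33 and pcDNA mice were not compared, no test was made, and pooled values mix the libraries of both.

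TGF-beta is secreted bound to its own propeptide, and this latent complex has to be anchored and opened before it can signal. Nrros, also called LRRC33, anchors latent TGF-beta1 on microglia and other myeloid cells. The free ligand is bound by TGFBR2, which phosphorylates TGFBR1. TGFBR1 in turn phosphorylates SMAD2 and SMAD3, which enter the nucleus with SMAD4, while SMAD7 is induced by the pathway and inhibits TGFBR1. Microglia, the resident macrophages of the brain, are known to need this signal for their mature identity. Tgfbi encodes a secreted matrix protein that TGF-beta induces in many cells and that tumor-associated macrophages are known to make.

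The matrix held 105560763 transcript counts (unique molecular identifiers, UMIs) over 40411 barcodes, with a median of 1536 to 3503 UMIs per barcode in the 6 libraries, and 38751 barcodes passed the filters. A cell entered the microglia group when P2ry12, Tmem119 and Gpr34 together made at least 0.2% of its UMIs. Of the passing cells, 34728 were microglia (85.4% to 93.5% per library), 207 monocytes (Ly6c2, Ccr2, Chil3), 112 dendritic cells (Cd209a, Flt3, Zbtb46, Clec9a, Xcr1), 117 NK cells, 52 granulocytes and 191 choroid plexus cells. A further 2912 cells had at least 1% of their UMIs on C1qa, C1qb and C1qc but too few microglial transcripts for the gate, and they are called C1q phagocytes. Only 5 cells passed the border macrophage gate, too few to describe, and 251 cells in several gates and 176 in none were left out. The groups were spread unevenly over the libraries: libraries 4, 5 and 6 held 181 of the monocytes and 111 of the dendritic cells but 15730 of the microglia, and 18998 microglia came from libraries 1, 2 and 3. Pooled ratios of monocytes and dendritic cells to microglia therefore also carry differences between libraries, arm and time included. For members past 1.5-fold, ratios within a library are given beside the pooled ones. For other genes only pooled ratios are given. Markers not used in the gates fitted the names of the monocytes and microglia. Plac8 was at 2815 counts per 1000000 UMIs (CPM) in monocytes and 5.61 CPM in microglia, and Sall1, a transcription factor of microglia, at 3.28 and 76.8 CPM. The 4 dendritic check markers summed to 746 CPM in dendritic cells, 104 CPM in monocytes and 31.4 CPM in microglia. Ccr7, which is among them, had no UMI in dendritic cells. The dendritic cells also held 1662 CPM of Ccr2 and 2174 CPM of Plac8, so that the gate took Cd209a-positive cells with monocyte transcripts. The C1q phagocytes held 12858 CPM of the microglial check genes against 16116 CPM in microglia, and so are not shown to be another cell type. They also held more of the monocyte check markers (Plac8, Ms4a4c, Vcan and Fn1), at 144 against 33.5 CPM in microglia. For the dendritic check markers it was 79.3 against 31.4 CPM.

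The libraries are not separate at the level of barcodes, which bears on every count of libraries below. Of 29579 barcode sequences, 3890 (13.2%) occurred in more than 1 library, and these made 36.4% of all barcodes. Barcodes of the same sequence in a pair of libraries resembled each other, with a median correlation of 0.193 to 0.351 over 500 genes, against -0.004 to 0.004 for the next barcode in the list. Shared barcodes were shallow, with a median of 929 UMIs against 3137 UMIs for barcodes of 1 library. They made 70.8% of C1q phagocytes, 66.3% of microglia with high Apoe and 35.3% of all microglia, but 5.31% of monocytes, 4.46% of dendritic cells and 2.56% of NK cells. What makes the barcodes shared was not tested. Values are therefore given with and without them for C1q phagocytes, Apoe-high microglia and some further ratios, and the figures of ratios show both. Levels in microglia are given over all barcodes. In microglia Tgfb1 was at 235 CPM with shared barcodes and 376 CPM with barcodes of 1 library. Tgfbr1 went the other way, at 395 and 291 CPM. Agreement between libraries is not a count of independent mice. Intervals are exact 95% intervals that cover counting error only.

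To place the members with the most contrasting patterns in the genome, their promoter windows (250 bases before to 50 after a RefSeq start, build GRCm38.p6, plus strand for both) are shown. Tgfbi is a protein-coding gene at chr13:56609523-56639562 and Tgfbr1 one at chr4:47353222-47414931. The windows were searched on both strands for CAGAC, the core to which SMAD3 and SMAD4 bind (GTCTG on the other strand), and for GAGGAA, the core of the myeloid factor PU.1 (TTCCTC on the other strand). Capitals mark the matches, and the windows lie at chr13:56609336-56609635 and chr4:47352972-47353271.
Tgfbi: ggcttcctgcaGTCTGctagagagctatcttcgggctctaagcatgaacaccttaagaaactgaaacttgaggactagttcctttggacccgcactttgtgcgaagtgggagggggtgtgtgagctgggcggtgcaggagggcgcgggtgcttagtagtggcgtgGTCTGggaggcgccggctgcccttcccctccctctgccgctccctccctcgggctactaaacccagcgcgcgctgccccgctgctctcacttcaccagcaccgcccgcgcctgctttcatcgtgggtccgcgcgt
Tgfbr1: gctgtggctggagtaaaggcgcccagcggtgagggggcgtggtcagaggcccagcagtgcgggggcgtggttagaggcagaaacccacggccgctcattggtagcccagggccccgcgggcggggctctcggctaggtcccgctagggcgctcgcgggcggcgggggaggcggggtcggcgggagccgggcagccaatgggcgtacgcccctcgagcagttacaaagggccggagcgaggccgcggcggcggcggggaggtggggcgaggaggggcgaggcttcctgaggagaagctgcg
The Tgfbi window held GTCTG at -239 and -85 from the start and no PU.1 core, and this Tgfbr1 window held neither set of letters. The window of the other RefSeq start of Tgfbr1, not printed, held 1 match of each. A SMAD core occurs in 49.6% and a PU.1 core in 28.3% of the 32851 promoter windows, so that these matches are a description of the letters. A window was found for 6 members, and Smad2, Smad4 and Smad7 had no entry.

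The ligand transcript Tgfb1 was present across the leukocytes and highest in monocytes. Its level was 352 CPM in microglia (348 to 356), 549 CPM in monocytes (502 to 600) and 428 CPM in dendritic cells (376 to 485), against 236 CPM in C1q phagocytes, 181 CPM in NK cells and 7.03 CPM in choroid plexus cells. Over the 6 libraries, Tgfb1 in microglia had a lowest value of 322, a median of 341 and a highest value of 449 CPM. Only libraries 4, 5 and 6 held at least 20 monocytes, with 532, 434 and 606 CPM, and the values of the lowest monocyte library and the highest microglia library overlapped. The ratio of monocytes to microglia was 1.56 (1.43 to 1.70), with all 3 libraries higher (1.26 to 1.61 within a library). It was 1.45 (1.32 to 1.58) without shared barcodes and 1.46 without library 6, both within 1.5-fold.

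Nrros, the anchor of the latent ligand, was at 198 CPM in microglia (195 to 201), 199 CPM in C1q phagocytes, 279 CPM in monocytes (246 to 316), 275 CPM in dendritic cells (234 to 321) and 68.4 CPM in NK cells (39.8 to 110). Libraries 4, 5 and 6 gave 316, 151 and 298 CPM in monocytes and 284, 152 and 302 CPM in dendritic cells. Library 5 thus lay below the range of microglia, 185 to 218 CPM, and the other libraries lay above it. The ratios of 1.41 and 1.39 to microglia stayed within 1.5-fold. For monocytes it was 1.59 with mitochondrial and ribosomal protein genes left out of the totals, and 0.898 with cells thinned to 500 UMIs, so that the direction of Nrros there depends on the processing. Among 8773 genes over the 13 gated groups with at least 50 cells, Nrros was among the 5 genes most like Tgfb1 (Pearson r = 0.973 of log2(CPM + 5)), as were Pip5k1c (r = 0.980), Fam49b and Cd53. Among the 5 genes most like Nrros were Lyn (r = 0.984), Slc6a6, Pip5k1c and Irf5. These correlations are descriptions: the groups share libraries, the 6 states lie within the microglia, and choroid plexus cells, with low levels of leukocyte genes, are 1 of the 13 points.

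The receptors went the other way. Tgfbr1, the kinase that passes the signal to SMAD2 and SMAD3, was at 308 CPM in microglia (305 to 312) and 271 CPM in C1q phagocytes (257 to 286), but at 50.3 CPM in monocytes (36.9 to 67.1) and 18.9 CPM in dendritic cells (9.44 to 33.8). In microglia the libraries ran from 260 to 341 CPM with a median of 320 CPM. The 3 monocyte values were 53.9, 37.7 and 53.0 CPM and the 3 dendritic values 14.2, 28.4 and 19.1 CPM, all far below the lowest microglia library. Tgfbr1 in monocytes was thus 0.163 of its level in microglia (0.119 to 0.218), 0.180 without shared barcodes and 0.118 to 0.187 within a library. In dendritic cells the ratio was 0.0613 (0.0306 to 0.110), and 0.0494 to 0.0893 within a library. With each cell thinned to 500 UMIs, 15.8% of microglia, 1.93% of monocytes and 0 of 112 dendritic cells had a Tgfbr1 UMI. Without thinning these shares were 49.4%, 16.9% and 8.04%.

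Transcripts of microglia were found at low level in the other groups too, which bears on the low Tgfbr1 values. C1qa, a complement gene of microglia, stood at 9.67% of its microglial level in monocytes, 1.19% in dendritic cells, 22.3% in NK cells and 5.73% in choroid plexus cells. Tgfbr1 stood at 16.3%, 6.13%, 15.7% and 5.32% of its microglial level in these groups. It thus lay above C1qa in monocytes and dendritic cells and below it in NK and choroid plexus cells. The part of free RNA in these values was not tested, and the NK value is not read as expression.

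Tgfbr2, the receptor that binds the ligand, was at 86.1 CPM in microglia (84.2 to 88.1), 103 CPM in C1q phagocytes (93.9 to 112), 40.5 CPM in monocytes (28.5 to 55.8), 22.3 CPM in dendritic cells (11.9 to 38.2) and 64.4 CPM in NK cells (36.8 to 105). The monocyte libraries gave 33.7, 9.42 and 48.0 CPM, all below the 77.9 to 101 CPM of microglia. Its ratio to microglia was 0.470 in monocytes (0.331 to 0.649) and 0.259 in dendritic cells (0.138 to 0.444). Within a library it was 0.108 to 0.5263 and 0.109 to 0.301. For Tgfbr2 in NK cells the interval of the ratio, 0.427 to 1.21, included equal levels.

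**Figure D1:**
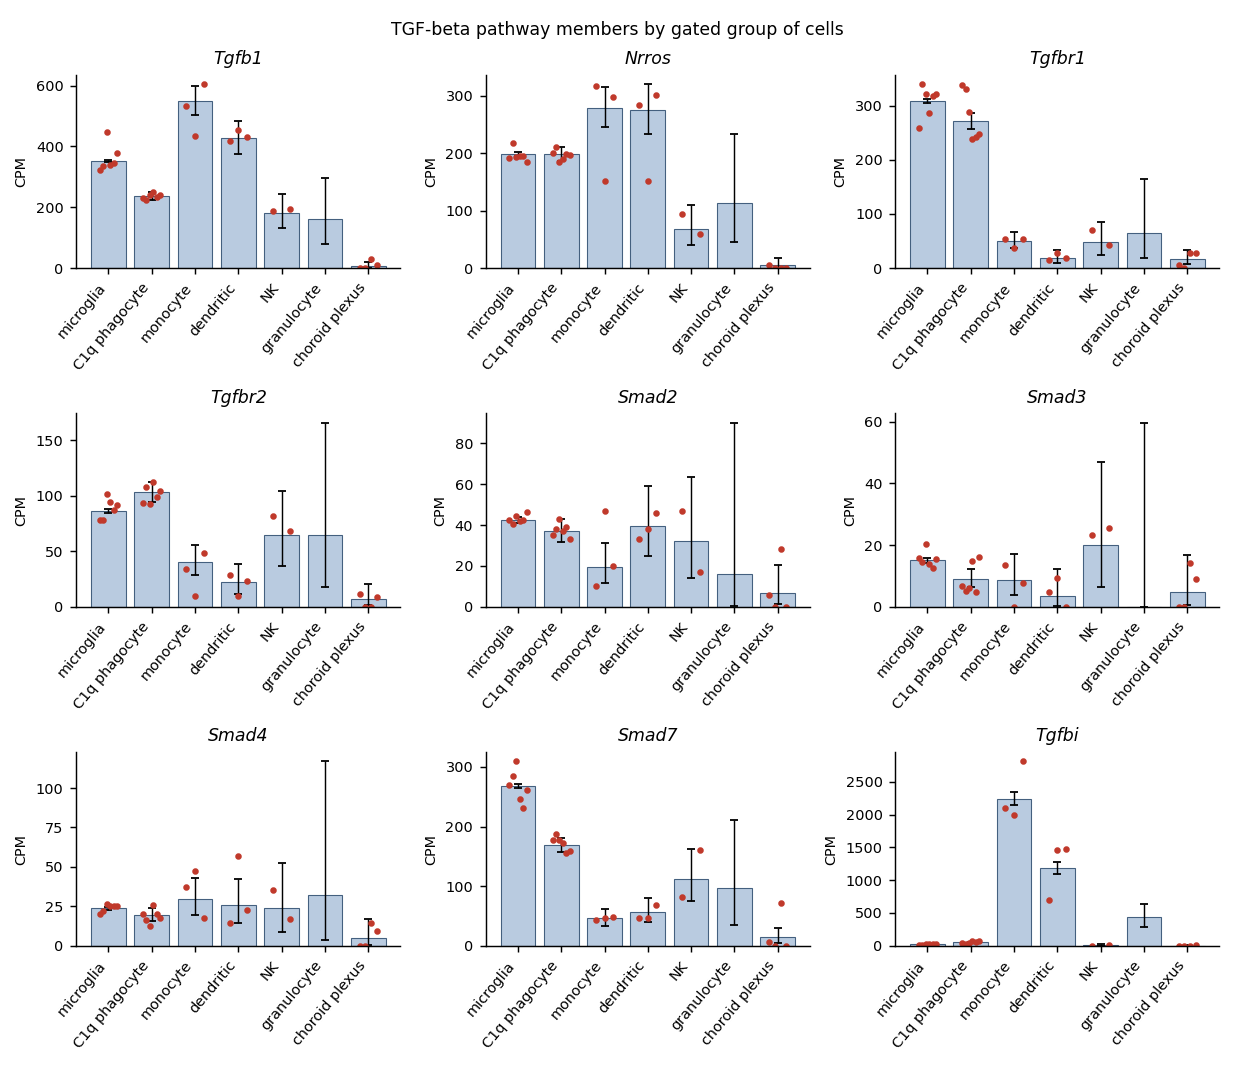
Level of each member in CPM (vertical axes, linear and separate for each gene) in 7 gated groups of cells. Bars are pooled cells, black lines exact 95% Poisson intervals and red points single libraries with at least 20 cells of the group. Tgfbr1 and Smad7 stand at 308 and 268 CPM in microglia against 50.3 and 46.0 CPM in monocytes, and Tgfbi at 20.8 against 2243 CPM.

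Few UMIs of the signal-transducing Smads were counted in the small groups, which limits what the counts can show. Smad2 was at 42.6 CPM in microglia (41.2 to 44.0), with libraries from 40.3 to 46.2 CPM. It was at 19.7 CPM in monocytes, from 18 UMIs (11.7 to 31.1), and at 39.5 CPM in dendritic cells (25.1 to 59.3). The 3 monocyte libraries spread from 10.1 to 47.1 CPM, so that 1 of them lay above microglia although the pooled ratio was 0.463, and the ratio within a library ran from 0.240 to 1.12. Smad3 was at 15.1 CPM in microglia (14.3 to 15.98), while monocytes held 8 UMIs and dendritic cells 2 UMIs of it. The interval of its ratio in monocytes, 0.249 to 1.14, included equal levels, and the ratio within a library ran from 0 to 0.973. In dendritic cells the ratio was 0.227 (0.0275 to 0.822), and 0 to 0.762 within a library. Smad4, the partner of both, was at 23.6 CPM in microglia, 29.5 CPM in monocytes, 25.8 CPM in dendritic cells and 24.1 CPM in NK cells, and it was within 1.5-fold of microglia in each of these groups.

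Smad7, the inhibitor that the pathway itself induces, was lower in monocytes and dendritic cells than in microglia, as was the receptor Tgfbr1. Microglia held 268 CPM (264 to 271), with libraries from 231 to 309 CPM, and C1q phagocytes held 169 CPM (157 to 181), with libraries from 156 to 188 CPM. Monocytes held 46.0 CPM (33.1 to 62.1), with 43.8, 47.1 and 48.0 CPM in libraries 4, 5 and 6. Dendritic cells held 56.7 CPM (39.0 to 79.7) and NK cells 113 CPM (74.9 to 163). The libraries of monocytes and microglia did not overlap. The ratio of monocytes to microglia was 0.172 (0.124 to 0.232), and it was 0.168 without shared barcodes and 0.178 to 0.204 within a library. In dendritic cells the ratio was 0.212 (0.146 to 0.298), and 0.192 to 0.263 within a library.

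Tgfbi, the secreted target, had the widest range of the members. Microglia held 20.8 CPM (19.9 to 21.8), monocytes 2243 CPM (2147 to 2343) and dendritic cells 1179 CPM (1092 to 1271). Libraries 4, 5 and 6 gave 2104, 1998 and 2811 CPM in monocytes and 696, 1459 and 1471 CPM in dendritic cells, and the highest of the 6 microglia libraries gave 24.6 CPM. The ratio of monocytes to microglia was 108 (101 to 115), and it was 103 (95.8 to 110) without shared barcodes and 84.5 to 114 within a library. In dendritic cells the ratio was 56.7 (51.8 to 61.9), and 29.0 to 61.7 within a library. Granulocytes, with 27 UMIs, stood at 437 CPM (288 to 635) of Tgfbi, while NK cells held 2 UMIs and choroid plexus cells 1 UMI.

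Cell by cell, Tgfbi was a property of most monocytes and of few microglia. The median monocyte held 5 UMIs, 132 of 207 held at least 3 UMIs and the highest held 57. Among dendritic cells the median was 2 UMIs and 50 of 112 held at least 3. Of 34728 microglia, 33047 held none and 11 held at least 3. The genes most like Tgfbi over the 13 groups were Nadk (r = 0.967), Clec4a1 (r = 0.967), AI839979, Nrg1 and Pira2, and among the 5 most like Tgfbr1 were Csnk1e (r = 0.986), Xlr (r = 0.984), Rnase4 and Adap2.

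**Figure D2:**
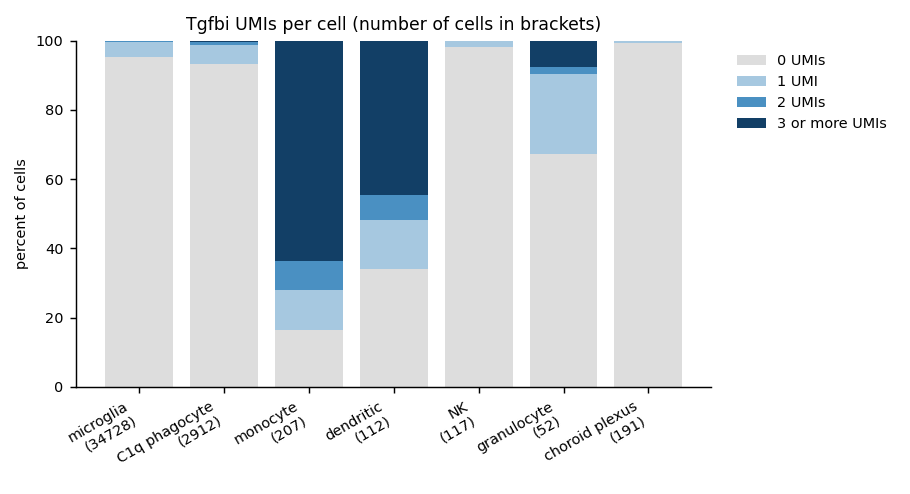
Share of cells (vertical axis, percent) with 0, 1, 2 or at least 3 UMIs of Tgfbi in each of 7 gated groups, with the number of cells in brackets. At least 3 UMIs were found in 132 of 207 monocytes and 50 of 112 dendritic cells, but in 11 of 34728 microglia.

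Counted together, 2 members were at least 1.5-fold higher in monocytes than in microglia (Tgfb1 and Tgfbi) and 5 at least 1.5-fold lower (Tgfbr1, Tgfbr2, Smad2, Smad3 and Smad7). Of all genes with a mean level of at least 10 CPM, 28% were higher and 28.8% lower by this measure, so that the monocyte and microglia groups differed broadly. In dendritic cells 1 member was higher and 4 were lower, against 32.2% higher and 28.7% lower of all genes. In NK cells none was higher and 5 were lower (Tgfb1, Nrros, Tgfbr1, Smad7 and Tgfbi), against 37.3% and 25.6%. In granulocytes 1 was higher and 6 were lower, against 28.1% and 44.8%, with at most 27 UMIs of any member. The counts are over all 9 members, and Smad3 did not reach the mean of 10 CPM in the dendritic and granulocyte comparisons. The median ratio of the members to microglia was 0.578 in monocytes and 0.928 in dendritic cells, while over all genes it was 0.992 and 1.06.

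C1q phagocytes held Tgfbi at 54.5 CPM (48.0 to 61.5), 2.62 times the level in microglia (2.29 to 2.98). Tgfbi was higher there in each of the 6 libraries, which ran from 26.7 to 68.2 CPM. Of its 259 UMIs in these cells, 44 lay in the 8 cells with at least 3 UMIs, and the highest cell held 14. Monocyte check markers were also higher in this group than in microglia, and their part in the Tgfbi ratio was not tested. In these cells 1 member was higher and 2 were lower (Smad3 and Smad7), against 6.87% higher and 5.45% lower of all genes. Since 70.8% of them carried shared barcodes, the 849 cells with barcodes of 1 library were taken alone. There Tgfbi was at 74.9 CPM (64.8 to 86.2) and the ratio to microglia was 3.53 (3.03 to 4.10). Again 1 member was higher and 2 were lower, now Tgfbr1 and Smad7, against 8.31% and 7.68% of all genes. Tgfbr1 depended on the kind of barcode. It was at 400 CPM in C1q phagocytes with shared barcodes and at 166 CPM in those with barcodes of 1 library, while Tgfbi went the other way, at 29.5 and 74.9 CPM, as did Smad3, with 8 and 35 UMIs. For Tgfbr1 the ratio to microglia was 0.879 over all barcodes and 0.569 over those of 1 library. With the microglia gate lowered to 0.1% of UMIs it was 1.12, on the other side of equal levels. Tgfbi stayed higher, but at 1.22 times microglia and within 1.5-fold, when the gate used Siglech, Olfml3 and Fcrls. Smad7 had ratios of 0.630 and 0.569, and Nrros of 1.00 and 1.01. In a split made after the values were seen, 27 of the 849 cells had a UMI of Ms4a7, a gene of macrophages other than microglia. Tgfbi was at 2.26 times the level of the other cells there (1.27 to 3.77), from 16 UMIs and with no library holding 20 such cells. The intervals of the other 8 members, such as Tgfb1 (ratio 0.959) and Smad7 (ratio 0.651), included equal levels.

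**Figure D3:**
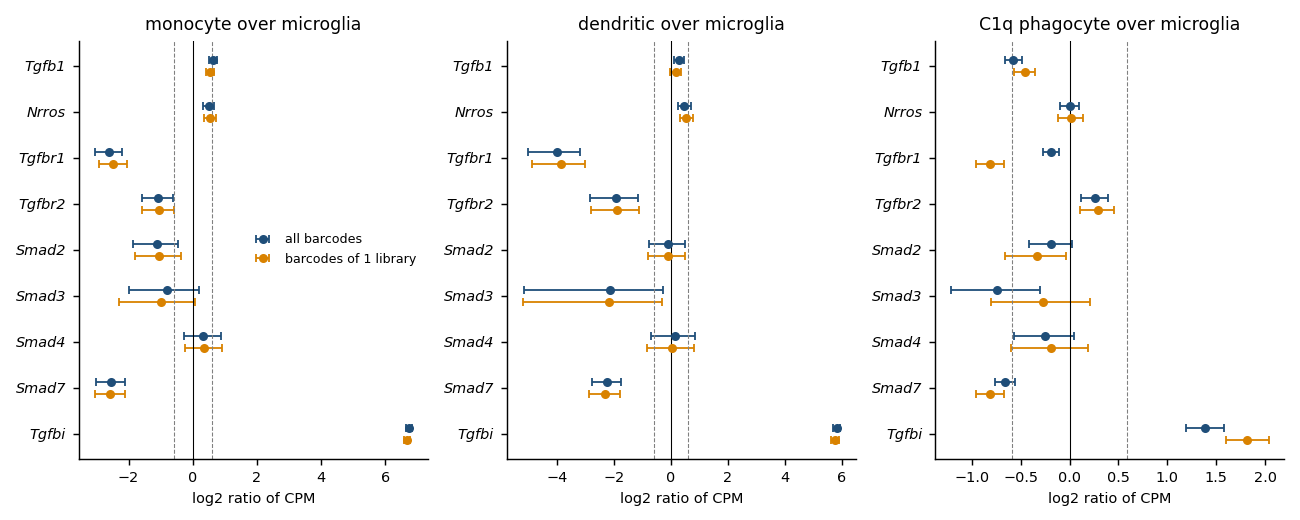
Ratio of each member's CPM to that in microglia (horizontal axes, log2) for monocytes, dendritic cells and C1q phagocytes. Blue points are all barcodes, orange points barcodes of 1 library, bars exact 95% intervals of counting error and dashed lines 1.5-fold. The colors lie together in monocytes and dendritic cells, while Tgfbr1 in C1q phagocytes is at 0.879 of microglia with all barcodes and at 0.569 with barcodes of 1 library.

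Within the microglia, cells were compared by state. Microglia with at least 1% of their UMIs on Apoe (14066 cells), the gene of a lipid carrier that activated microglia make, were set against the 20662 others. No member passed 1.5-fold in either direction, against 2.89% of all genes higher and 2% lower. Tgfb1 was at 280 CPM against 387 CPM, a ratio of 0.724 (0.706 to 0.743), and lower in each of the 6 libraries. Tgfbr1 was at 293 CPM against 316 CPM, a ratio of 0.926 (0.903 to 0.951), and higher in 1 of the 6 libraries. With barcodes of 1 library there was again no member past 1.5-fold, against 2.25% and 1.3% of all genes, but the ratios were other ones. Tgfbr1 was at 228 CPM against 311 CPM, a ratio of 0.733 (0.708 to 0.758), with all 6 libraries lower. Smad7 was at 216 CPM against 286 CPM, a ratio of 0.755, and Tgfb1 at 321 CPM against 393 CPM, a ratio of 0.817. Among microglia with shared barcodes, Tgfbr1 was at 397 CPM with high Apoe and 387 CPM with low Apoe. The level of Tgfbr1 in microglia thus moved with the kind of barcode. It was lower with high Apoe among barcodes of 1 library but not among shared barcodes. With cells thinned to 500 UMIs the ratio of Tgfbr1 was 1.03 over all barcodes. The part of depth in this was not tested further.

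The Ccl2/Ccl12-high, Lpl/Fam20c-positive, MHC class II-high, interferon and cycling microglia were each set against 18328 microglia in no state. The no-state cells also lie outside the Apoe-high gate, while cells of the 5 states can lie inside it. The states were also deeper, with medians of 3385, 3125, 3483, 3879.5 and 4111 UMIs in the order named, against 2828 UMIs in no-state cells. The part of Apoe in these ratios was not tested, and depth was varied only in the processing alternatives below. Tgfbr1 was lower in each of the 5 states. The no-state cells held 326 CPM (321 to 331), with libraries from 259 to 353 CPM. Tgfbr1 was at 216 CPM in 2783 cells high in the chemokines Ccl2 and Ccl12, with libraries from 179 to 277 CPM. It was at 202 CPM in 337 MHC class II-high cells, 225 of which came from library 1, at 175 CPM in 346 interferon cells and at 197 CPM in 319 cycling cells. It was nearest to the no-state level, at 293 CPM, in 818 Lpl/Fam20c-positive cells. The ratios were 0.664 (0.635 to 0.695), 0.620 (0.543 to 0.705), 0.537 (0.470 to 0.612), 0.603 (0.531 to 0.683) and 0.900 (0.837 to 0.968). All 6 libraries were lower in the Ccl2/Ccl12-high state and all 5 libraries with at least 20 cells in the interferon and cycling states. For MHC class II-high cells 2 of 3 libraries were lower, and without library 1 the ratio was 0.790, within 1.5-fold. Without shared barcodes the ratios were 0.675, 0.542, 0.536, 0.596 and 0.840, the first of them within 1.5-fold.

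The ligand and the inhibitor were lower in the states as well, mostly within 1.5-fold. Tgfb1 was at 394 CPM in no-state microglia and between 246 CPM in interferon cells and 317 CPM in cycling cells, with ratios of 0.624 (0.558 to 0.696) and 0.804. In cycling cells Tgfb1 was higher in 1 of 5 libraries. Smad7 was at 293 CPM in no-state microglia and at 174 CPM in cycling cells, a ratio of 0.596 (0.520 to 0.679). Its ratio was 0.751 in Ccl2/Ccl12-high, 0.875 in Lpl/Fam20c-positive, 0.716 in MHC class II-high and 0.761 in interferon cells. Smad7 was higher in 2 of 6 libraries in Lpl/Fam20c-positive cells and in 1 of 5 in interferon cells. In cycling cells 24.2% of all genes were at least 1.5-fold higher, and among the members Smad2 and Tgfbi were. Smad2 was at 75.2 against 43.6 CPM with a ratio of 1.73 (1.39 to 2.11) and all 5 libraries higher. Tgfbi was at 39.9 against 19.6 CPM with a ratio of 2.04 (1.51 to 2.69) and 4 of 5 libraries higher. The Tgfbi value in cycling cells rests on 52 UMIs. Tgfbr2 did not follow Tgfbr1: its ratios were 1.21 in Ccl2/Ccl12-high, 1.23 in Lpl/Fam20c-positive, 0.962 in MHC class II-high, 1.23 in interferon and 0.819 in cycling cells.

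By count, 0 members were higher and 1 was lower in Ccl2/Ccl12-high cells, against 3.35% and 1.39% of all genes. The same counts were found in MHC class II-high cells, against 4.49% and 10.7%. No member passed 1.5-fold in Lpl/Fam20c-positive cells, against 5.32% higher and 3.98% lower. In interferon cells 0 were higher and 3 lower (Tgfb1, Tgfbr1 and Smad3, the last from 14 UMIs), against 8.57% and 9.54%. In cycling cells 2 were higher and 2 lower, against 24.2% and 8.41%.

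**Figure D4:**
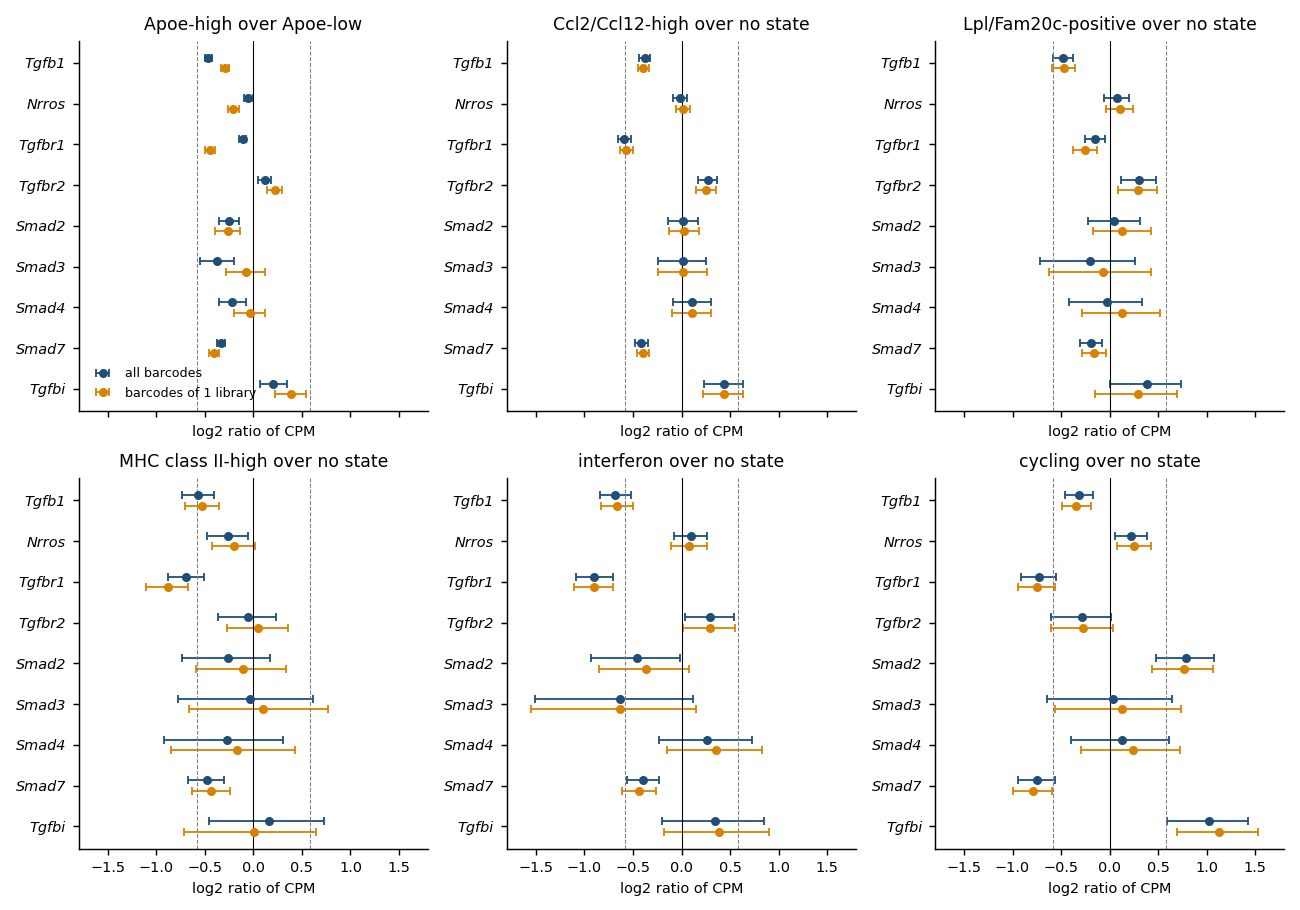
Ratio of each member's CPM (horizontal axes, log2) in 6 microglial states to that in the reference named in the panel title. Blue points are all barcodes, orange points barcodes of 1 library, bars exact 95% intervals of counting error and dashed lines 1.5-fold. Tgfbr1 lies left of equal levels in every panel, from 0.926 in Apoe-high to 0.537 in interferon cells. Smad2 and Tgfbi lie past 1.5-fold to the right in cycling cells, where 24.2% of all genes were higher by that measure.

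Microglia were also divided by how much of the gate genes they held, after the values above were seen and with barcodes of 1 library of at least 1000 UMIs. The 3 bands were 0.2% to 0.5% (3689 cells), 0.5% to 1% (10801 cells) and at least 1% (7308 cells) of UMIs on P2ry12, Tmem119 and Gpr34. Tgfbr1 was at 202, 289 and 343 CPM in these bands, Smad7 at 200, 276 and 300 CPM, and Tgfb1 at 288, 377 and 428 CPM. From the lowest to the highest band the ratios were 1.70, 1.503 and 1.49, with all 6 libraries in that direction for each. Nrros and Smad2 had ratios of 1.19 and 1.22, also with all 6 libraries higher. Tgfbr2 ran the other way, at 105, 84.8 and 79.9 CPM, as did Tgfbi at 29.9, 18.8 and 19.8 CPM, although only 4 of the 6 libraries were lower for Tgfbi. The median depth was 3521, 3159 and 2999 UMIs in these bands, and Apoe stood at 21506, 6885 and 3733 CPM, so that the bands also differ in Apoe. Its part in the result was not tested.

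**Figure D5:**
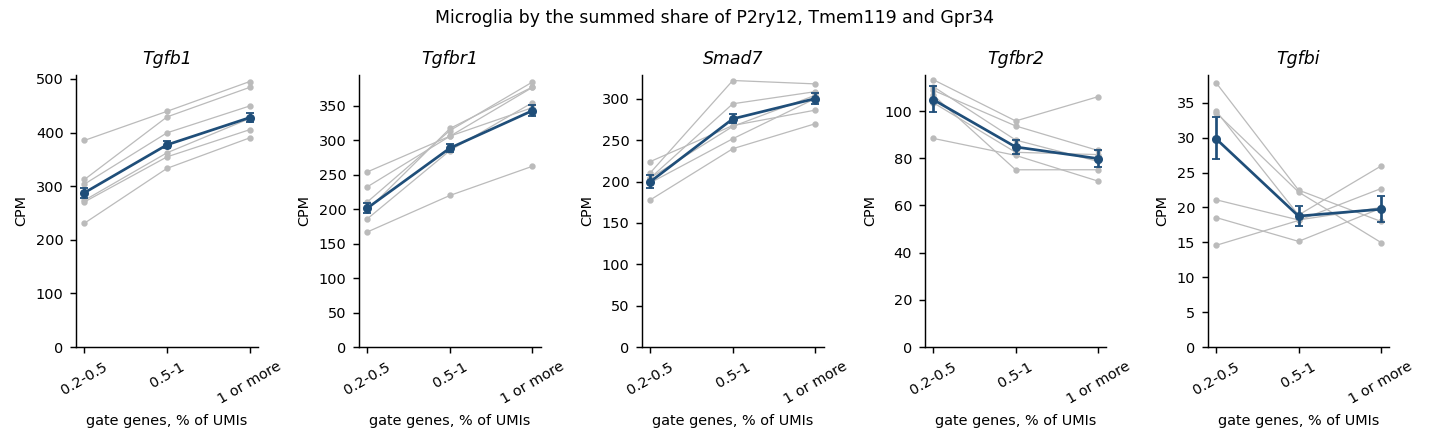
Level in CPM (vertical axes, separate for each gene) of 5 members in microglia divided by the share of their UMIs on P2ry12, Tmem119 and Gpr34 (horizontal axes, percent). Blue points are pooled cells with exact 95% Poisson intervals and grey lines the 6 libraries. Tgfbr1 is at 202, 289 and 343 CPM from the lowest to the highest band.

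Other genes of the pathway were read from lists by role. Their ratios are pooled over the libraries, without values within a library. No other ligand among Tgfb2, Tgfb3, Gdf15, Inhba, Bmp4 and Bmp6 reached a mean of 10 CPM in any comparison. Of 13 genes of the latent complex and its activation 5 reached it in monocytes and microglia. Furin, the protease that cuts the TGF-beta precursor, was at 132 against 34.4 CPM (ratio 3.85) and Mmp14, a membrane protease, at 83.2 against 23.7 CPM (ratio 3.503), both higher in monocytes. Itgb5, an integrin subunit of receptors that can bind latent TGF-beta, was lower, at 207 against 981 CPM (ratio 0.211). Lrrc32, the anchor related to Nrros, had no UMI in either group, which at the floor of 3 counts per group allows up to 3.28 CPM in monocytes and 0.0344 CPM in microglia. Of 8 other receptors 3 reached the limit and 2 were lower in monocytes, against 28.8% of all genes. Eng was 1 of the 2, at 21.9 against 64.9 CPM. The median ratio was 0.549 over these 3 receptors and 0.992 over all genes.

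Among 11 general TGF-beta target genes, 9 reached the limit in monocytes and microglia, of which 2 were higher in monocytes and 7 lower. Of all genes 28% were higher in monocytes and 28.8% lower. Pmepa1, a feedback inhibitor, was at 24.1 against 186 CPM (ratio 0.129), Skil, a corepressor of SMADs, at 126 against 514 CPM (ratio 0.245), and Junb at 3658 against 9228 CPM (ratio 0.396). Id3, a helix-loop-helix inhibitor, was higher, at 108 against 2.10 CPM (ratio 51.6), as was Klf10 at 126 against 77.6 CPM. The target list thus had no single direction. Of the 11 Smad regulators, some of which are also on the target list, 10 reached the limit. Beside the same shares of all genes, 3 were higher (Zfyve9 and Bambi, from 20 UMIs each in monocytes, and Fkbp1a) and 4 lower. Of the other Smads Smad1 was lower, at 17.5 against 28.0 CPM, and Smad5 was at 13.1 against 13.2 CPM.

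All 10 microglial genes known to need TGF-beta were lower in monocytes than in microglia, with a median ratio of 0.0919. All 10 were also lower in dendritic cells, with a median ratio of 0.0267. Of all genes 28.8% were lower in monocytes and 28.7% in dendritic cells. Several of the 10 are used as markers of microglia, and the groups were gated on other such markers. In C1q phagocytes 1 of the 10 was higher (Gas6, a ligand of the phagocytic receptor Mertk, at 199 against 129 CPM) and 5 were lower, among them Slc2a5 at 12.0 against 41.2 CPM (ratio 0.291) and Siglech at 401 against 791 CPM (ratio 0.507). Of all genes 6.87% were higher and 5.45% lower there, and the median ratio was 0.681 over the list and 0.989 over all genes. Between Apoe-high and Apoe-low microglia none of the 10 passed 1.5-fold, against 2.89% of all genes higher and 2% lower. The median ratio of the 10 was 0.827. In Ccl2/Ccl12-high microglia 8 of the general targets reached the limit, of which 2 were higher, Klf10 (ratio 1.92) and Id2 (ratio 1.78), and 1 was lower. Their median ratio was 0.930, beside 0.963 over all genes, of which 3.35% were higher and 1.39% lower.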

How the data were processed

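CD45+ cells of 6 mice were profiled with Chromium 3′ v2 chemistry on a NextSeq 500, in 3 sequencing batches whose members are not given in the sources used here. Per the labels the authors used Cell Ranger 3.1, build mm10 and Seurat 3.1.5. The matrix deposited by the authors holds raw UMI counts of 31053 genes and 40411 barcodes, joined over 6 libraries. The release of the gene annotation is not given in the sources used here. UMIs are counted at 3′ ends, and levels were compared between groups for the same gene. The matrix held 0 columns that belong to another series.

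The study's filters were applied: more than 200 genes, no more than 2500, and a mitochondrial share below 5%. Cells were grouped by gates, not clustered. A cell in more than 1 lineage gate was set apart, except that the dendritic gate took precedence over the monocyte gate. Doublets were not called otherwise. Beside their share, microglia needed at least 2 UMIs of their gate genes. The other gates were as follows: monocytes at least 3, dendritic cells at least 2, NK cells (Ncr1, Klrb1c, Gzma, Nkg7) at least 3 and choroid plexus cells (Enpp2, Sostdc1, Clu, Igfbp2) at least 5 UMIs, and granulocytes (S100a8, S100a9, Ngp, Camp, Retnlg, Ly6g) at least 1% of UMIs. States within microglia were Apoe at least 1%, Ccl2 and Ccl12 at least 1%, and Cd74, H2-Aa and H2-Ab1 at least 0.5%. Further states were at least 3 UMIs of Lpl and Fam20c, of Ifit1, Ifit2, Ifit3, Rsad2 and Irf7 (interferon), or of Mki67, Top2a, Mcm5, Hells and Rrm2 (cycling). States can overlap, and microglia in no state passed none of these gates, that of Apoe included.

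Levels are summed UMIs per 1000000 UMIs of the group, with exact Poisson intervals, and ratios have exact conditional binomial intervals. A ratio of at least 1.5, or its inverse, was counted, against all genes with a mean of at least 10 CPM. Groups were taken from the sample labels alone, which tie no suffix to a mouse. The study's supplement lists sequencing metrics of each library by arm, but libraries were not assigned by matching such metrics, so no arm was compared and no p-value was computed. The functions were tested on simulated data. Named genes are the 9 members, gate and check markers, the genes of fixed pathway lists (those of largest ratio, others such as Junb, Smad1, Smad5 and Lrrc32 chosen after their values were seen) and, for 4 members, the 5 genes most correlated with them, among genes of at least 20 CPM in a group. Ccn2 was read as Ctgf, its older symbol. Members and lists were chosen with earlier results of these data known. Python 3.11.15, NumPy 2.4.6, SciPy 1.17.1 and pandas 2.3.3 were used. The shared-barcode setting, the bands and the Ms4a7 split were added after the data were seen. Values of some listed genes are not reported here.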

Additional observations from a re-analysis of the deposited data

Results flagged for a closer look

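Of 72 sets of 4 to 10 libraries examined, 8 held 1 library apart from the others of its group of cells by Dixon's criterion. Chance alone meets it in about 1 of 20 sets of normally distributed values. That rate does not hold for counts mostly at 0. Libraries were not assigned to arms here, and no explanation was examined. Nrros in microglia was at 217.7 CPM in library 2, and the nearest of the 6 libraries was at 195.0 CPM. Tgfb1 in Ccl2/Ccl12-high microglia was at 437 CPM in library 3, with the nearest at 327 CPM. In Lpl/Fam20c-positive microglia Smad2 was at 79.5 CPM in library 5, with the nearest at 46.7 CPM, and Smad3 was at 46.8 CPM in library 3, with the nearest at 18.0 CPM. Smad3 in interferon microglia was at 24.3 CPM in library 1, with the nearest of 5 libraries at 9.68 CPM. In choroid plexus cells, over 4 libraries, Nrros was at 6.00 CPM in library 1 and Tgfbi at 9.07 CPM in library 6, each with the nearest at 0 CPM, and Smad7 was at 71.4 CPM in library 5, with the nearest at 6.00 CPM. The choroid plexus group held in all only 2 UMIs of Nrros, 1 of Tgfbi and 6 of Smad7, so these flags rest on very few counts. With 1 UMI in all, as for Tgfbi, the flag was fixed in advance.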

How the results depend on the processing

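Over 20 alternatives, 1599 of 1744 recomputed ratios stayed within the counting interval of the reported ratio, 144 left it and 1 changed direction after passing 1.5-fold: the log2 ratio of Smad3 in monocytes, from 8 UMIs, was 0.33 with cells in several gates kept. Of 438 member counts 68 moved by over 1.5 times, and the cause was not tested. The shares of all genes given above belong to the main setting, apart from those named for barcodes of 1 library. Shares under the alternatives are not given here. A changed count below, also with a library left out, is therefore not read as a result about the members. With the microglia gate at 0.1% of UMIs, 1 member was higher in NK, Ccl2/Ccl12-high and Lpl/Fam20c-positive cells and 2 in granulocytes, and 2 were lower in MHC class II-high cells. At 0.4%, 1 was higher in monocytes and NK cells and 2 in granulocytes, 0 were lower in C1q phagocytes and Ccl2/Ccl12-high cells, and 1 was lower in interferon and cycling cells. With a gate on Siglech, Olfml3 and Fcrls, 0 were higher or lower in C1q phagocytes, 1 was higher in monocytes, NK and Lpl/Fam20c-positive cells and 2 in granulocytes, while 0 were lower in Ccl2/Ccl12-high and 3 in MHC class II-high cells. Without the limit on genes, 1 was higher in monocytes, 1 was higher and 1 lower in interferon cells and 0 were lower in Ccl2/Ccl12-high cells. With at least 1000 UMIs, 0 were lower in Ccl2/Ccl12-high cells. With the mean over cells, 1 was higher in NK cells and 2 in granulocytes, and 1 was lower in Apoe-high cells. With totals without mitochondrial and ribosomal protein genes, 2 were higher in dendritic cells and 1 in NK cells, and 0 were lower in Ccl2/Ccl12-high cells. With equal weight per library, 1 was higher in monocytes, NK and MHC class II-high cells, with 0 lower in Ccl2/Ccl12-high and 2 lower in MHC class II-high cells. With cells in several gates kept, 1 was higher in monocytes, NK and MHC class II-high cells, and 3 were higher and 2 lower in granulocytes. Thinned to 500 UMIs, 2 were higher in dendritic cells and granulocytes and 1 in NK, Lpl/Fam20c-positive and MHC class II-high cells, while 8 were lower in NK cells, 2 in MHC class II-high and 1 in Apoe-high and cycling cells. At 2-fold, 1 was higher in monocytes and cycling cells, and 0 were lower in C1q phagocytes, Ccl2/Ccl12-high, MHC class II-high, interferon and cycling cells. With barcodes of 1 library, 1 was higher in monocytes and 0 were lower in Ccl2/Ccl12-high cells.

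Leaving out 1 library at a time, higher members ranged from 1 to 2 in dendritic cells (2 without library 5) and in granulocytes (2 without library 4, 5 or 6) and from 0 to 1 in MHC class II-high cells (1 without library 1). Lower members ranged from 1 to 3 in C1q phagocytes (1 without library 5), from 0 to 1 in Ccl2/Ccl12-high cells (0 without library 4 or 5) and from 1 to 2 in MHC class II-high cells (2 without library 1). Over the alternatives the ratio to microglia of Tgfbi ranged from 78.5 to 122 in monocytes and from 46.8 to 71.8 in dendritic cells, and that of Tgfbr1 from 0.111 to 0.205 and from 0.0547 to 0.0722. No paired test was made, and groups were compared within a library only by the ratios given above. Depth limits Smad2, Smad3 and Smad4 in the small groups, where they rest on at most 27 UMIs each.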
